A study of Mus musculus with 6 samples.

Results

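A set of 45 genes whose products build ribosomes were followed in the mouse small intestine, among 18193 genes measured with at least 1 probe set carrying that gene's symbol alone. They comprised 4 genes of RNA polymerase I transcription, 6 of the small nucleolar ribonucleoprotein (snoRNP) cores, 16 of the small subunit, 13 of the large subunit, 5 of abundant or regulatory nucleolar proteins, and Myc. All 45 were found on the array, and all lay above the filter on dim genes that left 13042 genes. The genes were chosen on their KO minus L/L differences and on the shifts between L/L days in these same arrays, so those differences are given as a description and carry no test of their own.

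The KO mice carried ROSA26CreERT2 together with L/L alleles of Fitm2, which encodes an endoplasmic reticulum protein of lipid droplet formation, and the L/L mice carried the L/L alleles without the recombinase. CreERT2 is a Cre recombinase that tamoxifen activates, and the ROSA26 locus that drives it is known to be active in most cell types; recombination by cell type was not analysed here. The L/L notation is not spelled out in the labels, and neither age nor sex is given there. Both genotypes received tamoxifen, 100 µg per g body weight into the peritoneum on days 1, 2 and 3. Mice were killed on day 2, 3 or 5 for the whole small intestine, and whether mice killed on days 2 and 3 had the later doses is not stated. Each array held 1 pool of RNA. For days 2, 3 and 5, the KO pools came from 7, 6 and 7 mice and the L/L pools from 6, 6 and 8 mice. With 1 array per genotype and day, no difference on a single day has a replicate, and the number of arrays limits the precision of every comparison.

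Ribosome production starts in the nucleolus, where RNA polymerase I transcribes the ribosomal DNA into a long precursor. SnoRNPs methylate and pseudouridylate that RNA, a large assembly called the SSU processome folds and cuts the part that becomes the 40S subunit, and a separate set of factors matures the 60S subunit. The transcription factor MYC is known to raise the expression of many of these genes, and in the intestine the pathway is most active in the dividing cells of the crypts.

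The deposited arrays, already processed by the authors, were alike in overall level, with median intensities of 57.7 to 59.7 over all probe sets. Medians of processed values do not show whether the pools held like amounts of RNA per cell. Fitm2 itself had intensities of 123, 127 and 119.6 in the KO pools of days 2, 3 and 5, against 193, 223 and 211 in the L/L pools, so every KO pool lay below every L/L pool. Its mean log2 difference was -0.76 ± 0.10 (SD over the 3 days, n = 3 differences). Listed epithelial genes had a high summed intensity in every pool. Of the 10, 9 were measured, and the sum ran from 136828 to 141972 in KO pools and from 135136 to 140444 in L/L pools.

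The ribosome biogenesis genes stood slightly but broadly higher in the KO pools. The median log2 difference over the 45 genes, KO minus L/L, was 0.21, 0.21 and 0.34 on days 2, 3 and 5, while over all 13042 genes it was 0.01, -0.01 and 0.02. A log2 difference of 0.32, which is 25% higher, was the size used to count a gene on a single day, where there is no replicate to test. Of the 45 genes, 42, 44 and 44 were above 0 on these days, beside 7239, 6199 and 7038 of all 13042. Above 0 on all 3 days were 41 of the 45, as 22.1% of all genes were. None lay below 0 on all 3 days, beside 2273 of all 13042. In bulk tissue, fewer cells of a type and less RNA per cell cannot be told apart, and the same holds for more.

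The differences of single genes were small. On day 2, 8 of the 45 genes were at least 25% higher in KO, a size that 2.02% of all genes reached. The count was 9 on day 3 (5.37% of all genes) and 24 on day 5 (15.5% of all genes). None of the 45 was lower by the same factor on any day, beside 140, 477 and 1281 of all 13042 genes. Of the 45, 4 passed that size on all 3 days, namely Nop56, Utp20, Wdr12 and Ftsj3, as 0.797% of all genes did. For 24 of the 45 every KO array lay above every L/L array, as for 7.48% of all genes. For 0 did every KO array lie below every L/L array, beside 738 of all 13042 genes. In the limma fit over the 3 days, adjusted by Benjamini-Hochberg over all genes, 0 of the 45 were called and 0.023% of all genes were. At an unadjusted p under 0.05, 32 were higher in KO and 0 lower (7.68% of all genes were higher and 601 of 13042 lower). Since the genes were chosen on this contrast, these counts are given for completeness and nothing is read from them.

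**Figure D1:**
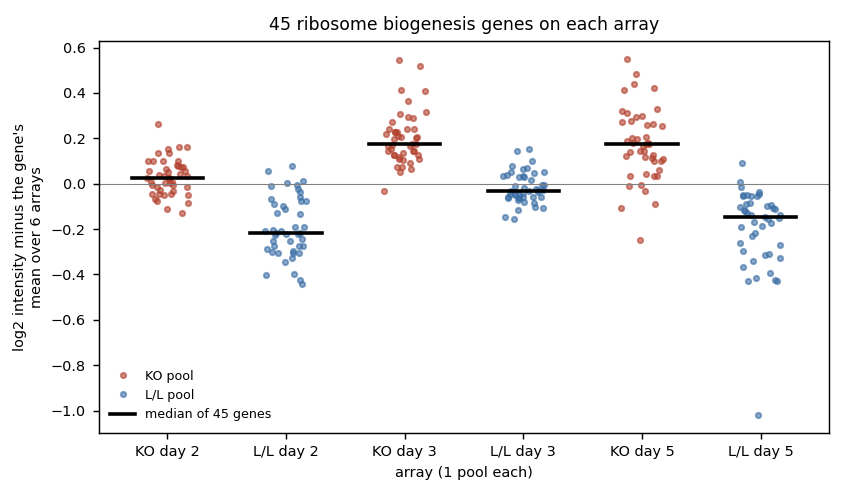
Each point is 1 of the 45 genes on 1 array, plotted as its log2 intensity minus that gene's mean over the 6 arrays, with KO and L/L pools of each day side by side and a bar at the median. The median is 0.17 in the KO pools of days 3 and 5 and 0.03 in that of day 2, and it is below 0 in all 3 L/L pools, lowest on day 2 (-0.22).

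Seen array by array, the KO pools of days 3 and 5 were the high ones. Measured from each gene's own mean over the 6 arrays, the median gene stood at 0.03, 0.17 and 0.17 in the KO pools of days 2, 3 and 5, against -0.22, -0.03 and -0.15 in the L/L pools. The highest of the 6 values fell in the KO pool of day 5 for 22 genes, of day 3 for 21 and of day 2 for 2, and in an L/L pool for 0. The lowest fell in the L/L pool of day 2 for 23 genes and of day 5 for 20. The exceptions were Polr1b, lowest in the KO pool of day 5, and Ubtf, lowest in the KO pool of day 3.

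Promoter sequence is shown for 4 genes that were higher together in KO and that share a letter match to the MYC-type E-box. Windows from 250 bases before to 50 bases after the annotated start (RefSeq, build GRCm38.p6) were found for 38 of the 45 genes. The E-box CACGTG, which reads the same on both strands, was present for 9 of the 38 genes (23.7%), against 8.09% of the 27025 genes with such windows and 8.91% of the protein-coding ones. The 9 genes were Utp20, Utp18, Wdr43, Tsr1, Ltv1, Imp4, Nop2, Pes1 and Mybbp1a. The 4 of these with the largest mean differences were Utp20 (chr10:88826765-88827064, minus strand), Mybbp1a (chr11:72441077-72441376, plus strand), Wdr43 (chr17:71615965-71616264, plus strand) and Tsr1 (chr11:74897830-74898129, plus strand). Capitals mark the E-box, whose first base lies 37, 40, 17 and 24 bases after the start in that order:
Utp20: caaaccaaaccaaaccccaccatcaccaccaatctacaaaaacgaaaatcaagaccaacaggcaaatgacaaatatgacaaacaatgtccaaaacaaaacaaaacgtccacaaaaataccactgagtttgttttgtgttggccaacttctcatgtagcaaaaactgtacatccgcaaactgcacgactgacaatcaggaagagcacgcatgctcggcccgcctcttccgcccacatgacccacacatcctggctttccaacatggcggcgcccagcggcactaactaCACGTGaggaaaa
Mybbp1a: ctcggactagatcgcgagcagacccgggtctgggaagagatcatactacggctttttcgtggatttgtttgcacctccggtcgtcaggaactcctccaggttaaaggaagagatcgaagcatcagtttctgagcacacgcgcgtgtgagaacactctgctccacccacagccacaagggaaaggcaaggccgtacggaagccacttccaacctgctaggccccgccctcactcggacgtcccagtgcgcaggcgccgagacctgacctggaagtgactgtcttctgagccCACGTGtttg
Wdr43: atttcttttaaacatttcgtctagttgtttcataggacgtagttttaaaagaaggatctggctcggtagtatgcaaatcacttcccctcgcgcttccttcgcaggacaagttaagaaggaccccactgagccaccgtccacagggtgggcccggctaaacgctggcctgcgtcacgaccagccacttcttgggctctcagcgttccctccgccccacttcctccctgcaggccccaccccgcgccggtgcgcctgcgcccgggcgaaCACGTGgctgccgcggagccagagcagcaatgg
Tsr1: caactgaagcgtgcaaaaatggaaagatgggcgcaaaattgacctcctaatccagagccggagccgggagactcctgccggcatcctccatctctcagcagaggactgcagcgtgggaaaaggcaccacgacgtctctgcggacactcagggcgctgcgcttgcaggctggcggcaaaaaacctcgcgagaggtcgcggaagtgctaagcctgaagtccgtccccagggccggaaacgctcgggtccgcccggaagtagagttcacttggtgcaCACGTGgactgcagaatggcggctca

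An ETS-type motif, CCGGAAG, was searched on both strands and does not overlap the E-box in letters. It was present for 12 of the 38 genes (31.6%), against 9.93% of all genes with windows and 12.9% of the protein-coding ones. Among the printed windows, that of Tsr1 holds it. The 9 genes with the E-box had median KO minus L/L differences of 0.19, 0.16 and 0.37 on days 2, 3 and 5. The 29 genes with a window but without the E-box had 0.23, 0.24 and 0.31. Both groups were chosen on these differences, so the values are a description only. A letter match describes the sequence and is not a binding site, and its absence says only that these letters are not in this window.

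**Figure D2:**
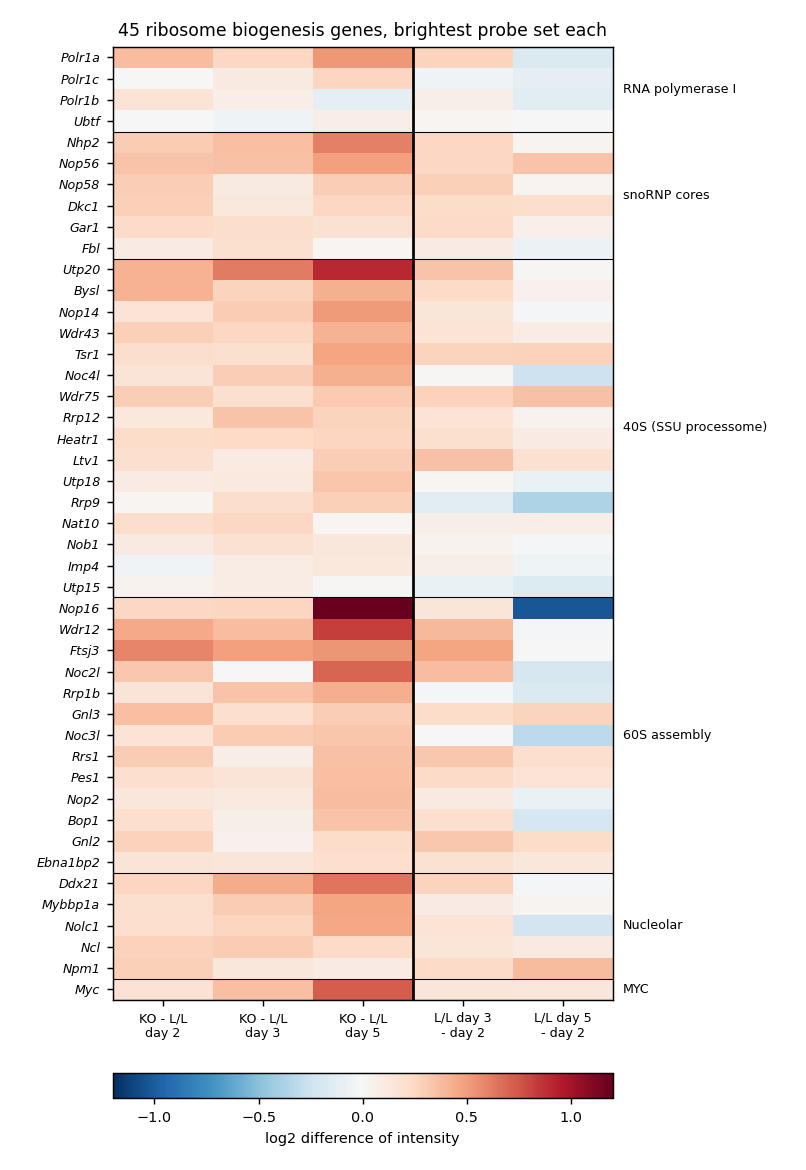
Colour gives the log2 difference of intensity for each of the 45 genes, grouped by role and ordered within a role by the mean difference, with KO minus L/L on days 2, 3 and 5 left of the line and the shifts between L/L pools right of it. Most KO minus L/L cells are above 0, up to 1.20 for Nop16 on day 5, and for that gene L/L day 5 minus L/L day 2 is -1.03.

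RNA polymerase I genes had the lowest role medians. The 4 genes had median differences of 0.08, 0.10 and 0.17 on days 2, 3 and 5. For 1 of the 4, Polr1a, all KO arrays lay above the L/L arrays, as for 7.48% of all genes. Polr1a, the largest subunit of the enzyme, had intensities of 131, 144 and 129 in the KO pools against 101, 122 and 89.8 in the L/L pools, a mean log2 difference of 0.38 ± 0.14 (SD over 3 days here and below). The next largest subunit, Polr1b, had 133, 132 and 100.0 in KO against 119, 124 and 108 in L/L. Its differences over the days were 0.16, 0.08 and -0.11, the last being the lowest of the 45 genes on day 5. Polr1c, shared with RNA polymerase III, measured 332, 345 and 366 in KO against 332, 319.7 and 306 in L/L, so the pools were equal on day 2 and 0.26 apart on day 5. Ubtf, the factor that holds ribosomal DNA open for transcription, was level, with 739.7, 731 and 781 in KO against 741, 756 and 739.7 in L/L and a mean of 0.01 ± 0.06.

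The snoRNP core genes were higher as a block. All 6 were above 0 on all 3 days (22.1% of all genes), with medians of 0.29, 0.20 and 0.27. Box C/D particles guide ribose methylation, and of their core proteins Nop56 showed 556, 665 and 782 in KO pools against 438, 521 and 556 in L/L pools, 0.40 ± 0.08. Each KO value exceeded the L/L value of its day, although the KO pool of day 2 did not exceed the L/L pool of day 5. Nop58, its partner, had 615, 657 and 629.9 in KO against 501, 611 and 514 in L/L, 0.23 ± 0.11. All KO values lay above all L/L values, the day 2 KO pool only just above the day 3 L/L pool. Fibrillarin, the methyltransferase of these particles (Fbl), was nearly level, at 1575, 1794 and 1424 in KO against 1471, 1571 and 1402 in L/L, 0.10 ± 0.09. The groups overlapped for Fbl, and its day 5 difference was 0.02.

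Box H/ACA particles guide pseudouridylation. Nhp2, a structural protein of these particles, gave the largest mean difference of the snoRNP genes: 954, 1179 and 1197 in KO against 771, 915 and 789 in L/L, 0.42 ± 0.16. All KO pools lay above all L/L pools, with the widest gap on day 5 (0.60). Dkc1, the pseudouridine synthase, and Gar1 had mean differences of 0.22 ± 0.09 and 0.21 ± 0.02.

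Small-subunit genes were the most numerous, with medians of 0.18, 0.22 and 0.31. Of the 16, 15 were above 0 on all 3 days, as 22.1% of all genes were. For 9 of the 16 the KO arrays all exceeded the L/L arrays, as for 7.48% of all genes. Utp20, a very large scaffold protein of the SSU processome whose promoter is printed above, had the largest mean difference of the 45 genes. It measured 196, 287 and 279.7 in KO pools against 147, 187 and 149 in L/L pools, so all KO pools were above all L/L pools. The gap widened with day, at 0.41, 0.62 and 0.91, and averaged 0.65 ± 0.25.

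Bysl, which acts in late 40S maturation, had 260.1, 275 and 271 in KO against 195, 229 and 202 in L/L, 0.37 ± 0.09. Its KO pools were close together and all above the L/L pools. Nop14, a component of the processome, had 152, 186 and 192 in KO against 136, 150.3 and 135 in L/L, 0.33 ± 0.18. The day 2 KO pool barely cleared the highest L/L pool, that of day 3. Wdr43, a WD-repeat protein of the processome whose promoter is also printed, had 441, 480.4 and 514 in KO against 362, 405 and 385 in L/L, 0.32 ± 0.09, without overlap. Tsr1, a late 40S factor that resembles a GTPase, had 364, 429.9 and 527 in KO against 314, 377 and 380.2 in L/L, 0.29 ± 0.16, and there the groups overlapped.

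At the low end of the small-subunit genes, Imp4, a partner of the U3 snoRNA, had 261, 301 and 282 in KO against 269, 283 and 259 in L/L. Its difference of -0.04 on day 2 was the lowest of the 45 genes that day. Utp15, which belongs to the processome's early-binding module, was nearly level too, at 232, 227 and 203 in KO against 225, 213 and 201 in L/L. The other genes of this role, Wdr75, Heatr1, Utp18, Noc4l, Rrp9, Rrp12, Nat10, Ltv1 and Nob1, 9 in all, had mean differences from 0.14 (Nob1, the nuclease that makes the mature end of 18S rRNA) to 0.29 (Noc4l).

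Large-subunit genes held 3 of the 4 largest mean differences, with medians of 0.25, 0.16 and 0.37. All 13 were above 0 on all 3 days, as 22.1% of all genes were. On day 5, 10 of the 13 were at least 25% higher in KO, as 15.5% of all genes were. Wdr12 forms the PeBoW complex with Pes1 and Bop1 and is needed to process the 28S and 5.8S parts of the precursor. Its intensities were 134, 167 and 173 in KO pools against 98.1, 129 and 97.2 in L/L pools, 0.55 ± 0.24. Every KO pool lay above every L/L pool, and the day 5 difference was 0.83. Its partners differed less, with means of 0.24 ± 0.11 for Pes1 and 0.21 ± 0.13 for Bop1.

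Ftsj3, related to a yeast rRNA methyltransferase, had the dimmest probe set of the 45 and differed evenly over days. It had 78.6, 102 and 75.2 in KO against 52.3, 72.8 and 52.1 in L/L, 0.54 ± 0.05, and was the highest of the 45 on day 2 (0.59). The KO pools of days 2 and 5 stood only a little above the L/L pool of day 3. Nop16, a nucleolar 60S factor, had 155, 172 and 146 in KO against 130.3, 144 and 63.8 in L/L. The L/L pool of day 5 alone was low, and the day 5 difference was 1.20, beside 0.25 and 0.26 on days 2 and 3. A second Nop16 probe set, below the filter, gave 0.06, 0.15 and 0.10 on the 3 days.

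Noc2l, related to a yeast pre-60S factor and also a binder of histones, was uneven: 154, 159 and 173 in KO against 123, 158 and 106 in L/L. The pools were equal on day 3 (0.00), and the day 5 difference was 0.70. A second Noc2l probe set gave 0.11, 0.30 and 0.07 on days 2, 3 and 5, so the pattern over days was not shared. The remaining genes of this role, Nop2, Rrs1, Ebna1bp2, Gnl2, Gnl3, Noc3l and Rrp1b, had mean differences from 0.17 (Ebna1bp2) to 0.31 (Rrp1b). Gnl3, the GTPase nucleostemin, was the only one of these 7 to reach 25% higher on day 2, with 0.36.

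Nucleolar proteins had higher medians on days 3 and 5 than the 4 roles above, at 0.26, 0.30 and 0.47 over 5 genes. Nucleolin (Ncl), which packs pre-rRNA, had a bright probe set with 3583, 4034 and 3735 in KO pools against 2966, 3276 and 3189.9 in L/L pools, 0.27 ± 0.04, with every KO pool above every L/L pool. The other 3 Ncl probe sets above the filter were less even: 0.36, 0.20 and 0.13, then 0.31, 0.20 and -0.04, and for the dimmest 0.86, 0.11 and 0.80 over the days. Nucleophosmin (Npm1), a scaffold of the outer nucleolus, had 3344, 3529 and 3821 in KO against 2746, 3214 and 3569.7 in L/L, 0.17 ± 0.10. The L/L pools climbed with day for Npm1, and the groups overlapped. The other Npm1 probe set gave 0.18, 0.44 and 0.39 on the 3 days.

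Mybbp1a, a nucleolar protein that binds MYB and RNA polymerase I and whose promoter is printed above, had 1000.0, 1163 and 1242 in KO against 876, 939 and 897 in L/L, 0.32 ± 0.14. All KO pools exceeded all L/L pools. The chaperone of snoRNPs Nolc1 had 312, 364 and 318 in KO against 271, 304 and 230.2 in L/L, 0.31 ± 0.14, again without overlap. Ddx21, an RNA helicase of rRNA transcription and processing, had 199.5, 274 and 256 in KO against 167, 201 and 164 in L/L, 0.45 ± 0.19. Its day 2 KO pool matched the day 3 L/L pool. An almost equally bright second Ddx21 probe set ran the other way over time, with 0.50, 0.17 and -0.03 on days 2, 3 and 5.

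**Figure D3:**
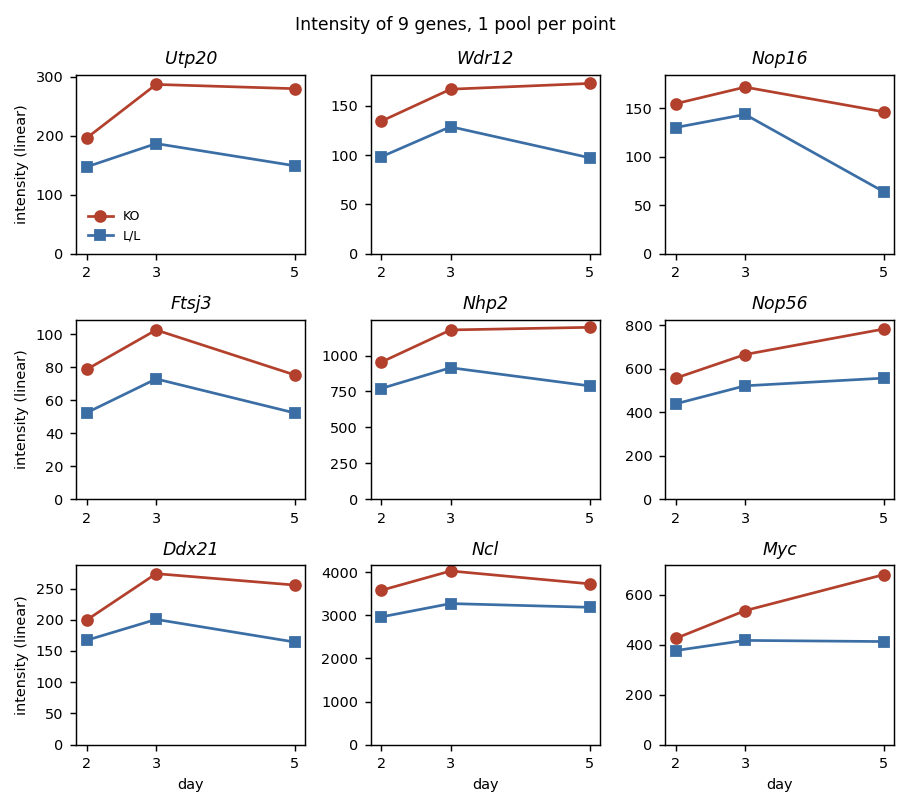
Linear intensity of 9 genes against the labelled day, 1 pool per point, with KO as circles and L/L as squares and each axis starting at 0. KO points lie above L/L points of the same day for all 9 genes, and the gap for Myc widens to 681 in KO against 412 in L/L on day 5.

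Myc itself had 425, 536 and 681 in KO pools against 376, 417 and 412 in L/L pools. Every KO pool was above every L/L pool, and the KO values climbed with day while the L/L values stayed close together. The log2 difference was 0.17, 0.36 and 0.72 on days 2, 3 and 5, a mean of 0.42 ± 0.28. The genes of the MYC network around it were not higher as a group. Over 10 such genes the medians were -0.03, 0.01 and -0.17, from -0.38 for Mycl, a MYC paralogue, to 0.20 for Mxd4, a MAX partner that opposes MYC, in the mean over days.

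Whether the difference changed with day was asked with a slope fitted over the 3 days. In limma, 0 of the 45 genes were called after Benjamini-Hochberg adjustment, while 1.23% of all genes were. At an unadjusted p under 0.05 there were 6 with a growing difference (10.6% of all genes): Utp20, Nop14, Nop16, Wdr12, Ddx21 and Myc. The 45 genes were chosen on the differences that this slope was fitted to, so nothing is read from these counts. The slope fit leaves 1 residual degree of freedom, and with an offset of 32 before log2 or a trended prior 1 of the 45 passed.

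The same genes also shifted between L/L pools, without the recombinase. From L/L day 2 to L/L day 3 the median of the 45 was 0.18 (all genes 0.03), close to the KO difference on day 2. Between the same pools, 20 DNA replication and mitosis genes had a larger median, 0.26. It was 0.01 over 31 cytosolic ribosomal proteins and -0.12 over 8 myeloid markers. Higher on L/L day 3 were 40 of the 45, beside 7587 of all 13042 genes. Of the 45, 7 were at least 25% higher, as 6.63% of all genes were: Utp20, Ltv1, Wdr12, Rrs1, Ftsj3, Gnl2 and Noc2l. From L/L day 2 to L/L day 5 the median was 0.02, with 3 genes at least 25% higher (7.15% of all genes), Nop56, Wdr75 and Npm1, and 2 lower by the same factor (8.07% of all genes), Rrp9 and Nop16. From L/L day 3 to L/L day 5 the median was -0.13, and 8 genes were lower by that factor, as 8.83% of all genes were.

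The counts on single days changed with the control array. The KO pool of day 2 lay only 0.06 above the L/L pool of day 3 in the median. Against the mean of the 3 L/L arrays, a comparison added after the values were seen, 4 genes were at least 25% higher in the KO pool of day 2 (3.01% of all genes), 21 in that of day 3 (5.97%) and 19 in that of day 5 (13.8%). Between KO pools the median shift was 0.16 from day 2 to day 3 and 0.15 from day 2 to day 5.

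**Figure D4:**
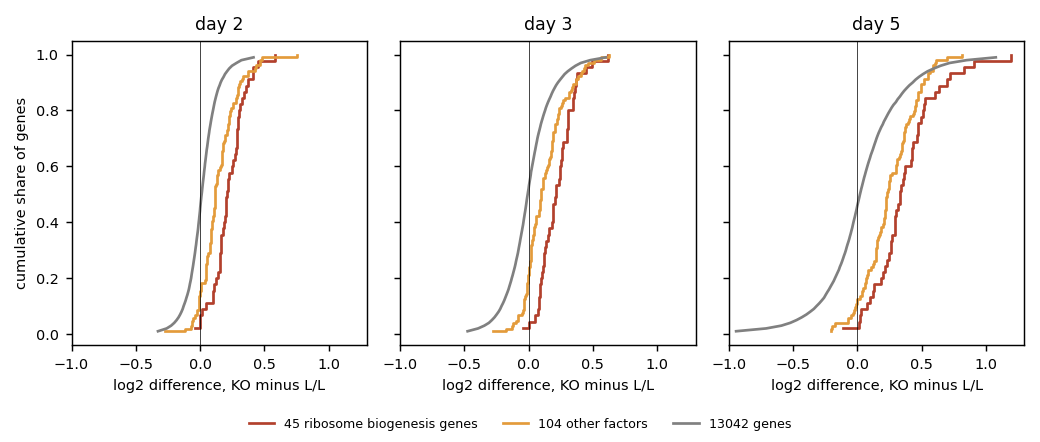
Cumulative share of genes against the log2 difference, KO minus L/L, on days 2, 3 and 5, for the 45 ribosome biogenesis genes, 104 other factors of the pathway and all 13042 genes (quantiles from 0.01 to 0.99). The curve of the 45 genes lies right of that of all genes on each day, with medians of 0.21, 0.21 and 0.34, and the medians of the other factors, 0.12, 0.10 and 0.23, lie between those of the 45 and of all genes.

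Other probe sets of the same genes were mostly higher in KO too. There were 39 further probe sets above the filter, from 29 of the 45 genes. Of the 39, 35 were higher in KO on day 2, 33 on day 3 and 33 on day 5, with medians of 0.19, 0.18 and 0.26. By brightest probe set, 7239, 6199 and 7038 of all 13042 genes were higher. The 39 read the same chosen genes on the same arrays, so these counts are a description only. Mean differences were above 0 for 37 of the 39, and the exceptions were a dim probe set each of Imp4 and Nat10. Sizes were not always shared between probe sets of a gene. On day 2 the other Polr1a probe sets gave -0.01 and 0.02, beside 0.37 for the brightest. The other Wdr43 probe set gave 0.06, 0.13 and 0.04 over the days, below its brightest, while those of Utp15 (0.31, 0.11 and 0.26) and Ubtf (0.06, 0.18 and 0.11) were above theirs.

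The rest of the pathway was taken from a list of 112 further ribosome biogenesis factors written by function. Of these, 105 were measured and 104 were above the filter. Their medians were 0.12, 0.10 and 0.23 on days 2, 3 and 5, lower than those of the 45 genes on each day. From L/L day 2 to L/L day 3 their median was 0.14, above the KO differences of days 2 and 3. In that L/L comparison, 15 of the 104 were at least 25% higher (6.63% of all genes). KO day 2 minus L/L day 3 had a median of -0.01. At least 25% higher in KO were 10, 14 and 39 of the 104 on the 3 days (2.02%, 5.37% and 15.5% of all genes). None was lower by that factor, beside 140, 477 and 1281 of all 13042 genes. KO arrays all exceeded L/L arrays for 30 of the 104 (7.48% of all genes). After adjustment limma called 0 of the 104 (0.023% of all genes). At an unadjusted p under 0.05, 38 were higher in KO (7.68% of all genes) and 0 lower (601 of 13042). The list was written with earlier results of these data known, so these counts are a description.

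Highest among these further factors were Ccdc86, a nucleolar protein, with 0.57 ± 0.22, Urb1, a 60S factor, with 0.56 ± 0.20, and Polr1e, a subunit of RNA polymerase I, with 0.54 ± 0.14. Ppan, which acts in 60S assembly, followed with 0.49 ± 0.09. The lowest means were -0.12 ± 0.14 for Taf1d, part of the promoter factor of RNA polymerase I, and -0.09 each for Nol6 (SD 0.16) and Nop53 (SD 0.10). Their E-box and ETS-type shares were 19.5% and 48.3% of the 87 genes with windows.

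Machinery next to the pathway differed less in the median. RNA polymerase III, which makes 5S rRNA and tRNA, had medians of 0.02, -0.05 and -0.00 over 13 genes. Of 50 listed cytosolic ribosomal proteins, the structural parts of the ribosome, 32 were measured and 31 were above the filter. The medians over these 31 were 0.00, -0.00 and -0.04. The RNA exosome, which trims rRNA precursors, had 0.05, 0.04 and 0.16 over 12 genes, with Exosc1 highest at 0.40 ± 0.13. Above 0 on day 5 were 11 of the 12, beside 7038 of all 13042 genes.

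**Figure D5:**
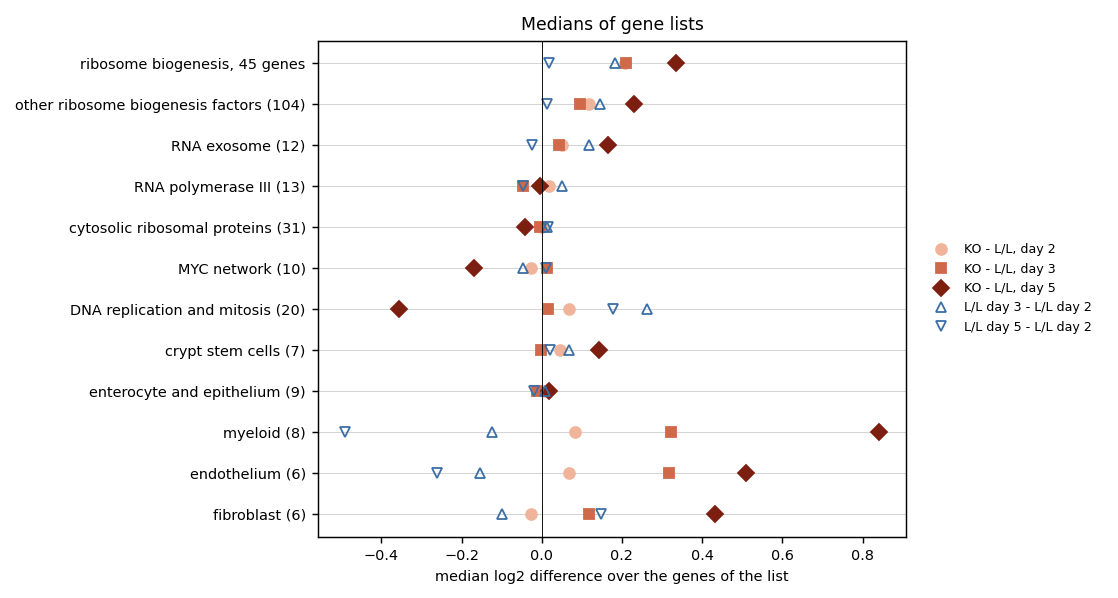
Median log2 difference over the genes of each list (number of genes in brackets), with filled symbols for KO minus L/L on days 2, 3 and 5 and open triangles for the shifts of L/L days 3 and 5 from L/L day 2. The 45 genes lie at 0.21, 0.21 and 0.34, cytosolic ribosomal proteins lie at 0.00, -0.00 and -0.04, and DNA replication and mitosis genes lie at -0.36 on day 5.

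Genes of dividing cells were mixed, and more of them were lower than higher in KO on day 5. Over 20 DNA replication and mitosis genes the medians were 0.07, 0.01 and -0.36. Lower in KO on day 5 by the factor used above were 11, beside 1281 of all 13042 genes. On that day 6 of the 20 were above 0, beside 7038 of all 13042 genes. Rrm2, a subunit of ribonucleotide reductase, was at least 25% higher, with 0.56. Mki67, a marker of cycling cells, had 916, 895 and 658 in KO against 894, 1301 and 1296 in L/L. Among 7 crypt stem cell genes the medians were 0.05, -0.00 and 0.14, but single genes were far apart on day 5, with Olfm4 at -1.97, Sox9 at 1.43 and Cd44 at 1.91. Targets of p53, a factor that responds to DNA damage among other stresses, were higher, with medians of 0.43, 1.01 and 1.46 over 12 genes.

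Markers of cells other than epithelium also differed, and their part in the values above was not tested. Over 8 of 8 myeloid markers the summed intensity was 3304, 3753 and 4860 in KO pools against 3110, 2789 and 2327 in L/L pools. For 6 of 6 endothelial markers it was 1368, 1432 and 1636 in KO against 1276, 1215 and 1084 in L/L, and for 6 of 6 fibroblast markers 11484, 11611 and 17477 in KO against 11625, 10892 and 12765 in L/L. Smooth muscle markers, 6 of 6, summed to 21908, 21174 and 32249 in KO and to 21862, 22100 and 27611 in L/L. Lymphocyte and pancreatic markers were low: 4 of 6 T cell markers summed to 301 to 384 in KO and 347 to 372 in L/L, and 3 of 6 pancreatic acinar markers to 213 to 298 in KO and 207 to 301 in L/L. For 5 of 6 B and plasma cell markers the sums ran from 760 to 1388 in KO and from 743 to 1260 in L/L, mostly through Jchain.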

How the data were processed

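Small intestine RNA of 6 pools was hybridised to Affymetrix 3' expression arrays. The deposited table held 1 linear intensity per probe set and array, made by the authors with Partek and RMA per the submitters' processing notes, whose versions and roles are not given. Log2 was taken here with no pseudocount and no further normalization. Of 45101 probe sets, 64 were controls, 34945 had 1 gene in the platform annotation, 932 had several and 9160 were not listed; symbols of 34741 were looked up through the gene ID in GRCm38.p6 and 0 changed. Each gene was represented by its brightest probe set (highest mean log2 over 6 arrays) and kept if brighter than the 40th percentile of probe sets (log2 5.28, intensity 38.9). For the 45 genes 93 probe sets were found, and 32 genes had more than 1.

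The limma package (3.58.1, R 4.3.3) fitted genotype beside day as a factor (residual degrees of freedom 2, prior 3.03) and, separately, its slope on centred day (residual 1, prior 4.76), two-sided, with Benjamini-Hochberg adjustment at 0.05. The 3 days are the only repeats, so p-values measure spread between days, and pooling hides the spread between mice. For single days, genes at least 25% higher were counted. Both fits were tested on simulated data. The 45 genes and all lists were chosen with earlier results of these data known. Described with every array were Myc, Ncl, Npm1 and Fbl, the 3 largest absolute mean differences of each role, and the 2 highest and 2 lowest genes of each day; of other lists, up to 3 at either end. Promoters came from RefSeq. Alternatives covered probe set choice, filter, offset, scaling, moderation, day terms, left-out days, the fold and the control array.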

Additional observations from a re-analysis of the deposited data

How the results depend on the processing

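The median KO minus L/L differences of the 45 genes kept their direction under every alternative run. They ran from 0.13 to 0.22 on day 2, 0.19 to 0.28 on day 3 and 0.28 to 0.34 on day 5. The lowest, 0.13, was that of day 2 against the mean of L/L days 3 and 5. Every alternative used the arrays on which the genes were chosen, so nothing is read from the kept direction. The median shift from L/L day 2 to day 5, 0.02, lay too near 0 to have a direction and ran from -0.01 to 0.03, with a negative sign under the mean of all probe sets, without probe sets that bind several transcripts and under cyclic loess. Counts at a fold were less stable. At 1.1-fold, 36, 30 and 37 of the 45 were higher in KO on days 2, 3 and 5 (12.9%, 18.6% and 31.6% of all genes), and 30 were higher on L/L day 3 than day 2 (27.5%). At 1.5-fold they were 1, 1 and 7 (0.429%, 1.1% and 5.19%), and 0 between L/L days 2 and 3 (0.882%). Against the mean of the 3 L/L arrays, chosen after seeing the data, the counts were 4 on day 2 and 21 on day 3, and against L/L days 3 and 5 also 4 on day 2 (5.38% of all genes). The 7 genes higher on L/L day 3 than day 2 became 4 with the mean of all probe sets, 1 with an offset of 32 and 3 with cyclic loess. Limma called 0 of the 45 and 0 of the 104 other factors under all 14 alternatives. Over all genes it called 3; 1 with the mean of all probe sets, 1 without day 2, 0 without day 3 and 6 with a linear day term. The slope test called 160 genes; 0 with no filter, 275 at a 60th percentile filter, 550 with the offset, 312 with median centring and 531 with a trend, and 1 of the 45 with the offset and with the trend. The causes were not tested. Arrays give no detection call here, so dim probe sets were judged by the filter alone.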
